A study of Homo sapiens with 4 samples.

Results

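The genes described here encode nuclear subunits of mitochondrial respiratory complexes I to IV and of ATP synthase (complex V). They were chosen by symbol: every probe whose annotated gene began with NDUFA, NDUFB, NDUFC, NDUFS, NDUFV, SDH, UQCR, ATP5, or COX followed by a digit from 4 to 8 was taken, and assembly factors, pseudogenes and an antisense gene were left out. This gave 82 genes on 110 probes, of 20043 genes with a single-symbol probe and 47322 probes in all. Complex I had 36 of the genes, complex II 3, complex III 8, complex IV 17 and complex V 18.

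RNA was measured on 4 Illumina bead arrays, 1 per group, in a study of what vesicles from cancer cells do to non-tumorigenic cells. The Dicer antibody array holds MCF10A cells, a non-tumorigenic human breast epithelial line, that were given exosomes of MDA-MB-231 with an antibody to Dicer inside. The exosome array holds MCF10A cells given MDA-MB-231 exosomes without the antibody, the MDA-MB-231 array holds that breast cancer line itself, untreated, and the untreated array holds MCF10A cells given none. All cells grew in medium whose serum had been depleted of exosomes, and the exosomes were isolated by ultracentrifugation. The sources used here give no dose, duration or passage, and the RNA protocol speaks of exosomes besides cells. With 1 array per group no difference below has a replicate check, an error or a test.

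Oxidative phosphorylation moves electrons from NADH, through complex I, and from succinate, through complex II, to ubiquinone, on through complex III and cytochrome c, and finally to oxygen at complex IV. Complexes I, III and IV pump protons across the inner mitochondrial membrane, and complex V lets them flow back to make ATP. Apart from complex II, each complex joins subunits of mitochondrial DNA with imported nuclear ones, and no gene of mitochondrial DNA is among those described. Most of the nuclear genes are active in nearly all cell types, while a few complex IV subunits also have tissue-restricted isoforms. The transcription factors NRF1, GABPA (of the ETS family) and YY1 are well-known regulators of these genes, so their motifs were looked for in the promoters.

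A RefSeq promoter (build GRCh38.p14, 250 bases before to 50 bases after the gene's start) was found for 68 of the 82 genes. On either strand, the letters GCATGCGC, an NRF1 motif, were in 12 of the 68 (17.6%), against 4.26% of 15843 promoters of the same length. The ETS letters CCGGAAGT were in 10 (14.7%), against 6.19% of all promoters, and the YY1 letters AAGATGGCG were in 7 (10.3%), against 2.74%. At least 1 of the 3 was in 24 of the 68, and the matching share of all promoters was not counted, so this number has no background beside it. Matches of 1 motif may overlap each other, and a match is a string of letters, not evidence of binding. The 250 bases upstream of the start are shown for 5 genes named in the results below. Most of these hold a motif, against 24 of the 68 promoters, so they do not stand for the family. SDHA and NDUFA3, each at least 2-fold different between the Dicer antibody and untreated arrays, held none of the 3 motifs. A link between motifs and differences was not tested. COX5B (chr2:97645812-97646061, + strand) and ATP5MG (chr11:118401356-118401605, + strand) were the brightest of the genes on the arrays with few detected probes. SDHD (chr11:112086623-112086872, + strand) changed little between the Dicer antibody and untreated arrays, NDUFS7 (chr19:1383657-1383906, + strand) was higher on the Dicer antibody array, and NDUFA13 (chr19:19515975-19516224, + strand) was lower there. Capitals mark the NRF1 letters (GCATGCGC or its reverse complement GCGCATGC) and the ETS letters (CCGGAAGT or ACTTCCGG).
COX5B: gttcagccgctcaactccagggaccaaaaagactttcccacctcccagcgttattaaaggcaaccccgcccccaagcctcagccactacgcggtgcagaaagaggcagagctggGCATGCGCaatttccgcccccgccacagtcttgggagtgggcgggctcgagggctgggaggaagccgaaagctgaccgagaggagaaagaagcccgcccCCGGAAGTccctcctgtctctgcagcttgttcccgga
SDHD: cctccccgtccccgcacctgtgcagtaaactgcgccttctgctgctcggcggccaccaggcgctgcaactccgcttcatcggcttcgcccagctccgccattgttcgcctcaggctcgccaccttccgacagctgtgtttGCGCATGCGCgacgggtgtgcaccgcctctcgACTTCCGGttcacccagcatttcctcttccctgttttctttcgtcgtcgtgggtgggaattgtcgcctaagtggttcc
NDUFS7: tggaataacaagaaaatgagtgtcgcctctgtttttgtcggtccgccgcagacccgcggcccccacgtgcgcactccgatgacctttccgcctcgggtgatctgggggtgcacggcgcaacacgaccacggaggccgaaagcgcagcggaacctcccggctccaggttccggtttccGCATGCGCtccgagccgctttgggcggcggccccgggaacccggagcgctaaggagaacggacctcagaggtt
NDUFA13: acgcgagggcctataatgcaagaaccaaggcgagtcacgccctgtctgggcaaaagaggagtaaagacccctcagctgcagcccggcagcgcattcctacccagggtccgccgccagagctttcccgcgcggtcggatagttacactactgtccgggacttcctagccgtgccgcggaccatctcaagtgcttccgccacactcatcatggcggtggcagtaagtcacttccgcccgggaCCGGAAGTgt
ATP5MG: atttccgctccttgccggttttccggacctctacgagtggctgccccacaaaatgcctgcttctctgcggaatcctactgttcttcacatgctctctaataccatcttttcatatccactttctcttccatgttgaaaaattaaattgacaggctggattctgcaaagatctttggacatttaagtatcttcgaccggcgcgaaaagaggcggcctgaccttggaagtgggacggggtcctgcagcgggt
COX5B holds NRF1 and ETS letters. SDHD holds the NRF1 letters on both strands, in 1 overlapping run, and ETS letters on the opposite strand. NDUFS7 holds NRF1 letters upstream, and its YY1 letters fall in the 50 bases after the start. NDUFA13 holds ETS letters, and no letters of the 3 motifs were found in the ATP5MG window.

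A probe was called detected on an array when its deposited detection p was below 0.01, and a gene is represented by its brightest probe. Signals are given as deposited, with the background included. The arrays split by how much they detected. On the Dicer antibody array 74 of the 82 genes were detected (90.2%, against 56.2% of all genes). The exosome array detected 11 (13.4%, against 6.89% of all genes), the MDA-MB-231 array 9 (11.0%, against 6.89%) and the untreated array 75 (91.5%, against 56.7%). The median signal over the 82 genes was 2262 units on the Dicer antibody array, 51.5 on the exosome array, 51.6 on the MDA-MB-231 array, with 2931 on the untreated array. Over all genes the median was 90.1, 53.1, 52.1 and 89.3 units in the same order. The respiratory genes thus lay far above the typical gene on the Dicer antibody and untreated arrays and near the background on the exosome and MDA-MB-231 arrays. Other housekeeping genes showed the same split, with 74, 27, 25 and 74 of 78 ribosomal protein genes and 33, 8, 7 and 33 of 35 proteasome genes detected on the Dicer antibody, exosome, MDA-MB-231 and untreated arrays. In such samples fewer cells of a type, less RNA per cell and a weaker signal over a whole array cannot be told apart.

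**Figure D1:**
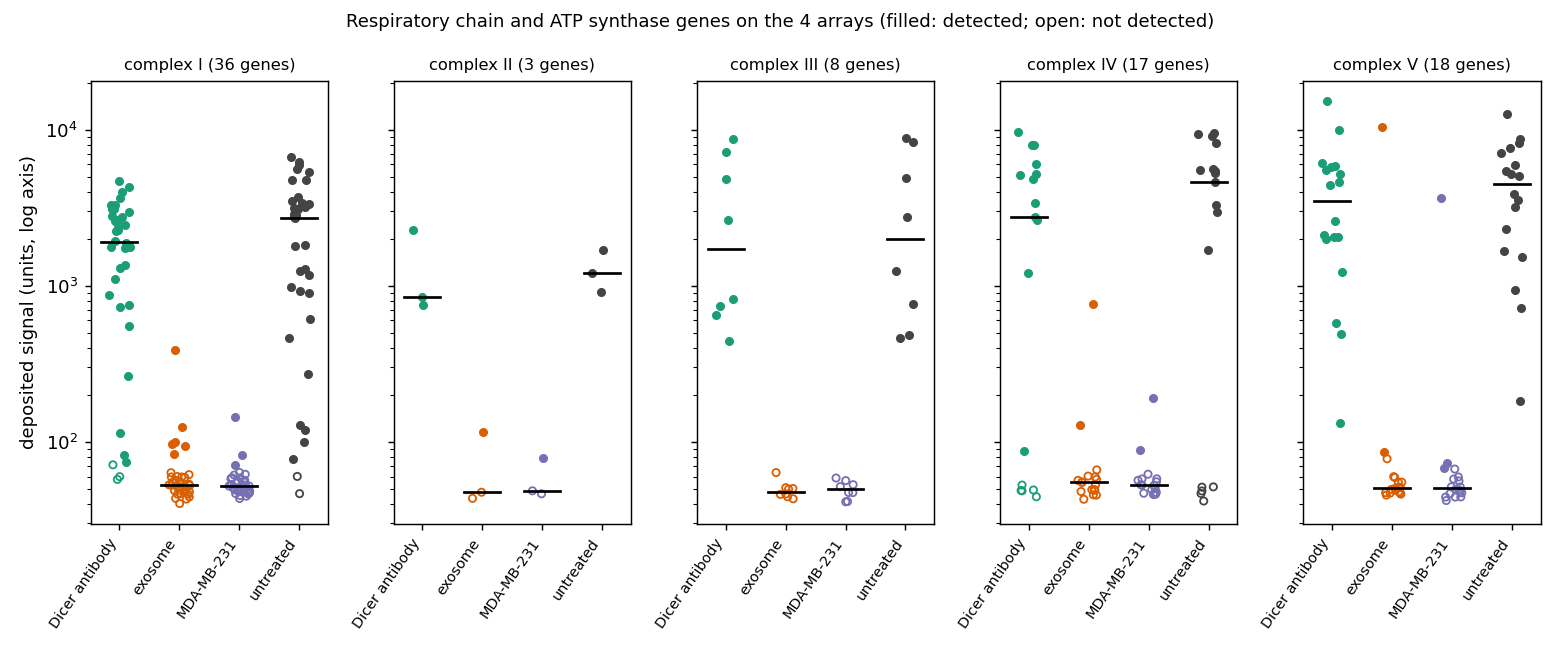
Deposited signal (units, log axis) of each of the 82 genes on the 4 arrays, in 1 panel per complex, with detected genes filled, undetected genes open and the median as a line. Nearly all points sit high on the Dicer antibody and untreated arrays (74 and 75 of 82 detected) and near 50 units on the exosome and MDA-MB-231 arrays (11 and 9 detected).

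Cell type markers were checked beside these genes. Of 8 markers of basal epithelium 6 were measured, and only EPCAM was detected, on the Dicer antibody and untreated arrays, while KRT5, KRT14 and CDH1 were detected on no array. Of 10 fibroblast markers, 6 were detected on the Dicer antibody array (summed signal 2543 units), 0 on the exosome array (531.7 units), 0 on the MDA-MB-231 array (525.7 units) and 10 on the untreated array (77611 units). Of 6 luminal breast markers 4 were detected on the Dicer antibody array and 1 on the untreated array, with sums of 925.8 and 410.8 units. All 6 markers of mesenchymal-like MDA-MB-231 cells were detected on the Dicer antibody and untreated arrays (summed signals 21954 and 35382 units), and 2 on the exosome array and 2 on the MDA-MB-231 array (471.8 and 425.0 units). The labels of the MCF10A arrays and of the MDA-MB-231 array are therefore used below as names of arrays. The part of cell type in any difference was not tested.

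Set against the untreated array, the Dicer antibody array asks, by the labels, what exosomes do when an antibody to Dicer is inside them. Both arrays detected most of the genes, and 73 of the 82 were detected on both. Their signals kept nearly the same order, with a Spearman correlation of 0.923 over the 82 genes and 0.86 over all genes, as a description of 2 arrays read with the same probes. After background correction and quantile normalization, 76 genes detected on at least 1 of the arrays were compared. At least 2-fold higher on the Dicer antibody array were 5 (6.58% of 76, against 15.2% of the 12476 genes compared), and 3 were at least 2-fold lower (3.95%, against 17.5%). The other 68 lay within 2-fold. The median log2 difference was -0.04 over the 76 genes and -0.02 over all genes, and it was negative for the 76 under each scaling tried. The deposited signals themselves were brighter on the untreated array for 60 of the 82. With median scaling the median over all genes shifted by -0.17, and the split of calls turned to 1 higher (1.32%, against 14% of all genes) and 10 lower (13.2%, against 24.6%). Without normalization between arrays it was 1 higher (1.32%, against 15.3%) and 7 lower (9.21%, against 22.9%). Relative to all genes, the median of the respiratory genes was -0.18 under either of these.

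Complex I takes electrons from NADH. Of its 34 genes compared, 4 were at least 2-fold higher on the Dicer antibody array (against 15.2% of all genes) and 2 at least 2-fold lower (against 17.5%). NDUFB9, an accessory subunit of the membrane arm, read 1780.1 units on the Dicer antibody array and 615.7 on the untreated array, a log2 difference of 1.81 (3.51-fold higher), and at least 2.84-fold over 7 scalings. It was the only one of the 5 higher genes to stay past 2-fold under every setting tried. NDUFA7, another accessory subunit, read 874.3 units on the Dicer antibody array and 460.1 on the untreated array (log2 difference 1.17), and NDUFB10, also of the membrane arm, read 3284 and 1812 (1.15). At the least over the scalings these came to 1.86-fold and 1.73-fold. NDUFS7, a core subunit that carries the last iron-sulfur cluster before ubiquinone and whose promoter is printed above, read 1771 units on the Dicer antibody array and 989.5 on the untreated array, a log2 difference of 1.13, at least 1.72-fold over the scalings.

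Of the 2 complex I genes lower on the Dicer antibody array, NDUFA3, a small accessory subunit, read 1889 units there and 4747 on the untreated array, a log2 difference of -1.05 (2.07-fold lower, at least 2.03-fold over the scalings). NDUFA13, an accessory subunit also known as GRIM-19, read 1111 units on the Dicer antibody array and 2711 on the untreated array, a log2 difference of -1.04 (2.05-fold lower, 1.97-fold at the least over the scalings). NDUFB1, NDUFB3 and NDUFB2, small subunits of the membrane arm, lay just inside 2-fold at -0.89, -0.84 and -0.78. NDUFB1 was dim on both arrays, with 73.9 units on the Dicer antibody array and 118.9 on the untreated array. NDUFB3 read 2626 and 5571 units, and NDUFB2 read 3278 and 6676 units, on the Dicer antibody and untreated arrays.

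The catalytic core and the accessory subunits of complex I had medians of opposite sign. The 6 core genes had a median log2 difference of 0.38, with 4 above 0, and the 28 accessory genes one of -0.14, with 7 above 0. Without normalization between arrays these medians were 0.09 and -0.38. Among the core genes, NDUFV1, the flavoprotein that binds NADH, read 1749 units on the Dicer antibody array and 1292 on the untreated array (0.71). NDUFS8, an iron-sulfur subunit, read 3997 and 3343 units (0.56). NDUFS3 and NDUFV2 were near 0, at 0.20 and -0.03, and NDUFS1, the largest core subunit, was dim at 113.7 and 129.0 units (-0.23). The brightest complex I gene by mean signal, the accessory NDUFB8, read 4722 units on the Dicer antibody array and 5945 on the untreated array (-0.04). NDUFA5 and NDUFS6 were detected on no array, and the one probe of NDUFB4 detected at all read 71.3 units (undetected) on the Dicer antibody array and 77.7 on the untreated array.

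Complex II, succinate dehydrogenase, was represented by SDHA, SDHC and SDHD. SDHA, the flavoprotein that oxidises succinate, read 2285 units on the Dicer antibody array and 1206 on the untreated array, a log2 difference of 1.20 (2.29-fold higher), and a second SDHA probe read 2022 and 916.4 units (1.42). The higher signal was thus seen with both probes, although the first gave 1.82-fold at the least over the scalings. SDHC, a membrane anchor, read 754.4 units on the Dicer antibody array and 1706 on the untreated array (-0.94), and its second probe read 225.0 and 353.8 (-0.55). SDHD, the other anchor, read 844.9 and 915.5 units (0.12). The flavoprotein and the anchor SDHC therefore differed in opposite directions between the same arrays.

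Complex III passes electrons from ubiquinol to cytochrome c. None of its 8 genes was 2-fold different, and the median log2 difference was 0.25, or -0.05 without normalization between arrays. UQCRC2, a core protein, was the highest at 0.89, with 738.9 units on the Dicer antibody array and 463.7 on the untreated array, while the core protein UQCRC1 read 2631 and 2774 units (0.20). UQCR10, a small subunit, was the lowest at -0.73, with 653.1 units on the Dicer antibody array and 1249 on the untreated array. UQCRH, the hinge protein next to cytochrome c1, was the brightest by mean signal, at 8718 units on the Dicer antibody array and 8375 on the untreated array (0.32), where UQCRQ was brighter. Its near-identical copy UQCRHL read 4873 and 4946 units (0.29), and probes may not tell the pair apart. UQCRQ, which sits beside cytochrome b as does UQCRB, read 7243 units on the Dicer antibody array and 8865 on the untreated array (-0.04). UQCRB read 826.1 and 764.5 units (0.34).

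Complex IV, cytochrome c oxidase, showed the largest single difference, in a tissue-restricted isoform. COX7A1, the isoform of heart and skeletal muscle, read 44.5 units on the Dicer antibody array, 45.6 on the exosome array and 47.5 on the MDA-MB-231 array, undetected on each, against 3293 on the untreated array. Its level on the Dicer antibody array was at least 18.3-fold lower than on the untreated array. Its broadly expressed partner COX7A2 read 6050 units on the Dicer antibody array and 8289 on the untreated array, a log2 difference of -0.22. All 10 fibroblast markers were also lower on the Dicer antibody array, with a median log2 difference of -5.29, and their part in the COX7A1 difference was not tested.

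Of the other restricted isoforms, only COX7B2, a testis isoform, was detected on any array, with 87.8 units on the Dicer antibody array, 42.9 on the exosome array, 46.9 on the MDA-MB-231 array, with 41.8 on the untreated array. Its partner COX7B read 1205 units on the Dicer antibody array and 1693 on the untreated array (-0.24). The brightest probes of COX4I2, COX6A2, COX6B2 and COX8C read between 45.8 and 57.9 units, undetected on all 4 arrays. Their partners gave small differences between the Dicer antibody and untreated arrays. COX4I1, an early-assembling subunit, read 7941 units on the Dicer antibody array and 9603 on the untreated array (-0.04). COX6A1 read 3395 and 4640 units (-0.18), and COX8A read 7975 and 9173 units (0.03). COX6B1 was the lowest of the common subunits, with 2778 units on the Dicer antibody array and 5300 on the untreated array (-0.68). COX7C was the brightest of the complex on the Dicer antibody array, at 9749 units there and 9404 on the untreated array (0.26).

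All 11 complex IV genes other than the restricted isoforms, COX7A2L among them, were detected on both arrays and within 2-fold. Their median log2 difference was 0.03, or -0.21 without normalization between arrays. The restricted isoforms thus held the only complex IV gene past 2-fold. COXFA4, the complex IV subunit formerly called NDUFA4, read 6266 units on the Dicer antibody array and 7069 on the untreated array (0.10), and its paralog COXFA4L2 read 67.2, undetected, and 87.9 units. A further paralog, COXFA4L3, singled out after its values were seen, read 62.9 units on the Dicer antibody array, 54.8 on the exosome array, 51.6 on the MDA-MB-231 array, with 1173 on the untreated array, the only one on which it was detected. It was at least 6.89-fold lower on the Dicer antibody array than on the untreated array.

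Complex V makes ATP as protons flow through its membrane part and turn its rotor. None of its 18 genes was 2-fold different between the Dicer antibody and untreated arrays, and the median log2 difference was 0.02, or -0.26 without normalization between arrays. ATP5F1B, the catalytic beta subunit, was the brightest of the 82 genes on both arrays, at 15269 units on the Dicer antibody array and 12552 on the untreated array (0.50). ATP5F1A, the alpha subunit, read 9982 and 8193 units (0.51). The smaller head and central stalk subunits ATP5F1C, ATP5F1D and ATP5F1E gave 0.10, -0.02 and -0.49.

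The parts of complex V differed in sign. The 3 c ring genes had a median of 0.47, with ATP5MC1 the highest of the complex at 0.63 (2111 units on the Dicer antibody array and 1673 on the untreated array), while ATP5MC3 gave -0.48 at low signal (132.5 and 182.5 units). The 4 peripheral stalk genes, which hold the head still, had a median of 0.23, from -0.50 for ATP5PD to 0.34 for ATP5PO. Of 5 small membrane subunits 4 were lower on the Dicer antibody array, with a median of -0.48. ATP5MF (subunit f) was the lowest of the complex at -0.64, with 2051 units on the Dicer antibody array and 3899 on the untreated array, and ATP5ME (subunit e) followed at 4413 and 7690 units (-0.55). The exception was ATP5MG (subunit g), at 6145 and 7152 units (0.06). ATP5IF1, the inhibitor that blocks ATP hydrolysis, gave -0.09. Without normalization between arrays the medians of the c ring, the peripheral stalk and the small membrane subunits were 0.16, -0.08 and -0.74, and that of the 5 head and central stalk genes was -0.21, against 0.10 with it, so the peripheral stalk and the head and central stalk changed sign.

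**Figure D2:**
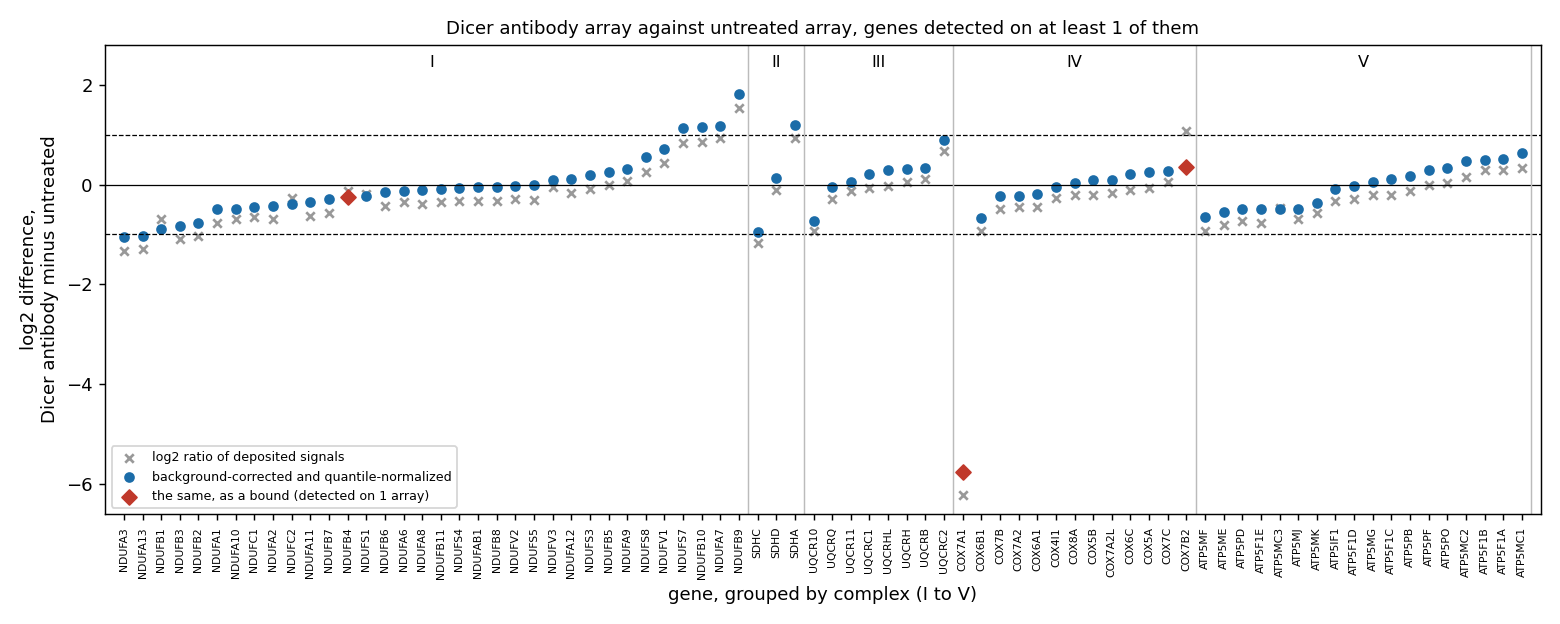
Log2 difference (Dicer antibody minus untreated array) of the 76 genes detected on at least 1 of the 2 arrays, sorted within complexes I to V, with values after normalization as circles, bounds as diamonds, ratios of the deposited signals as crosses and 2-fold as dashed lines. Most genes lie between the dashed lines (68 of 76), NDUFB9 is the highest at 1.81 and COX7A1 the lowest. The crosses lie mostly below the circles. Background-corrected values without normalization between arrays, which are not drawn, gave 1 higher and 7 lower.

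Gene span and brightness were set beside these differences as a description. Over 73 genes detected on both arrays, the Spearman correlation of the log2 difference with the genomic span of the gene was 0.16, against -0.07 over 10150 genes of all kinds. The correlation with the signal on the untreated array was -0.03 for the respiratory genes, against -0.31 over all genes. These values describe 1 pair of arrays, and the second pair of measures shares the untreated array.

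More than 1 probe was available for 22 of the genes, with 50 probes in all. Of 22 other probes detected on both the Dicer antibody and untreated arrays, 18 gave a difference of the same sign as the brightest probe. The exceptions were ATP5F1D, ATP5MG, NDUFA10 and UQCRB. NDUFA10 differed most: its brightest probe read 556.8 units on the Dicer antibody array and 898.9 on the untreated array (-0.49), and its other probe read 490.4 and 341.0 (0.72). The direction for NDUFA10 therefore depends on the probe. For ATP5F1D the brightest probe read 2620 units on the Dicer antibody array and 3210 on the untreated array (-0.02), and the other 497.0 and 428.2 units (0.42). The second UQCRB probe read 124.5 units on the Dicer antibody array and 125.8 on the untreated array (-0.03), and the last one read 64.0 units, undetected, and 151.0 units. Among probes detected on both arrays, signs thus turned where the differences were small, except for NDUFA10. The last UQCRB probe, not among these, was lower on the Dicer antibody array, while the brightest UQCRB probe was higher there. The direction for UQCRB therefore also depends on the probe. ATP5MC1 kept its sign but not its size, at 0.63 for the brightest probe and 1.45 for the other, which read 282.3 units on the Dicer antibody array and 116.6 on the untreated array. For ATP5ME the values were -0.55 and -1.11. On detection, probes disagreed for 3 genes on the Dicer antibody array (ATP5MC2, ATP5ME and UQCRB) and for 2 on the untreated array (ATP5MC2 and NDUFB4).

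**Figure D3:**
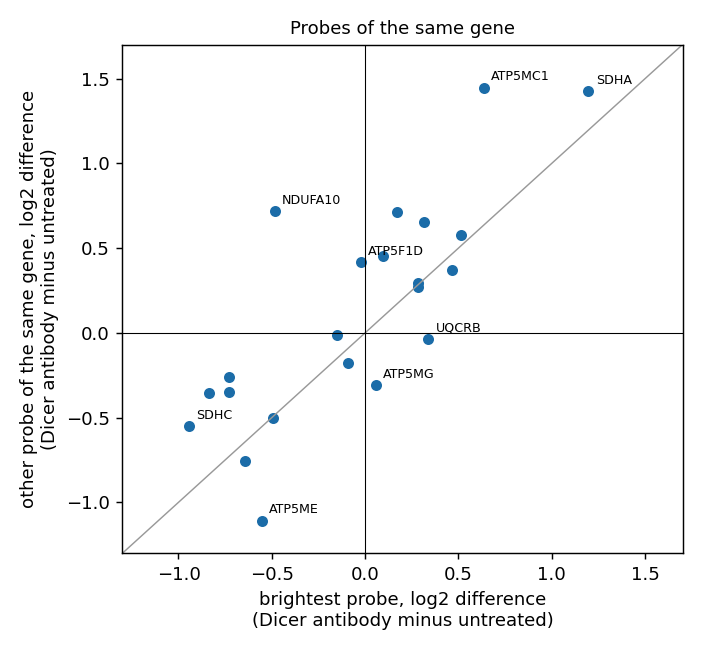
Log2 difference (Dicer antibody minus untreated array) of the brightest probe of a gene on the horizontal axis and of another probe of that gene on the vertical axis, with 1 point per other probe detected on both arrays and the line of equal values in grey. Of the 22 points 18 lie in the quadrants of equal sign, and NDUFA10 (-0.49 and 0.72) is farthest from them.

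Genes that serve the respiratory chain were set beside its subunits for the same pair of arrays. CYC1, the cytochrome c1 of complex III, whose symbol the rule misses, read 3700 units on the Dicer antibody array and 2449.9 on the untreated array (0.90). Of 43 assembly factors measured, 42 were compared, 9 were at least 2-fold higher on the Dicer antibody array (against 15.2% of all genes) and 1 lower (against 17.5%), with a median log2 difference of 0.34. FOXRED1 and NDUFAF4, both assembly factors of complex I, were the highest at 1.93 and 1.45, and COX20 and COX14, both of complex IV, the lowest at -1.31 and -0.87. Over all 7 scalings, 3 of the 42 factors stayed at least 2-fold higher and 1 lower, against 1066 and 1373 of the 12476 genes compared. The medians of these factors and of the subunits were not tested against each other.

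Regulators of mitochondrial gene expression had a median log2 difference of 0.76 over 12 genes, with 4 at least 2-fold higher on the Dicer antibody array (against 15.2% of all genes) and none lower (against 17.5%). The growth regulator MYC read 9045 units on the Dicer antibody array and 731.9 on the untreated array (3.96, or 15.6-fold higher), and TFAM, which packages mitochondrial DNA, read 1454 and 522.6 units (1.73). NRF1 itself was dim, at 78.4 and 71.4 units (0.06), and GABPA read 182.0 and 252.9 units (-0.40). Of 7 electron carriers and feeders compared, ETFA, which feeds electrons from fatty acid oxidation, was the only one past 2-fold, at 4921 units on the Dicer antibody array and 2787 on the untreated array (1.15). The others ran up to 0.93 for DHODH, through 0.13 for CYCS, and down to -0.53 for ETFDH. Of 11 tricarboxylic acid cycle genes IDH3A was higher on the Dicer antibody array (1.49), OGDH was lower (-1.91), and SUCLG1 and DLST stood next at 0.99 and -0.80. The ribosomal protein and proteasome genes had medians of 0.31 and 0.49, with 11 of 76 and 6 of 33 at least 2-fold higher, near the 15.2% of all genes, and 5 and 0 at least 2-fold lower, against 17.5% of all genes.

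The exosome and MDA-MB-231 arrays detected 12 of the 82 genes between them, 8 on both, 3 on the exosome array alone and 1 on the MDA-MB-231 array alone. None of these was in complex III. ATP5MG was far brighter than the rest, at 6145 units on the Dicer antibody array, 10352 on the exosome array, 3652 on the MDA-MB-231 array, with 7152 on the untreated array. Among the 75 genes detected on the untreated array it alone had a higher deposited signal on the exosome array. COX5B, a subunit on the matrix side of complex IV, came next, at 4846 units on the Dicer antibody array, 769.1 on the exosome array, 192.0 on the MDA-MB-231 array, with 5591 on the untreated array. NDUFB7, an accessory subunit of complex I, read 1937, 388.8, 143.4 and 2888 units on the Dicer antibody, exosome, MDA-MB-231 and untreated arrays. The other 9 lay between 78.0 and 128.8 units on the exosome array and between 58.9 and 88.3 on the MDA-MB-231 array. COX6C read 5165, 128.8, 88.3 and 5538 units on the 4 arrays in that order, NDUFS8 3997, 123.9, 82.1 and 3343 units, and NDUFA13 1111, 99.8, 71.4 and 2711 units. The 3 genes detected on the exosome array alone were NDUFS4, an accessory subunit of complex I, at 96.4 units there and 58.9 on the MDA-MB-231 array, NDUFV1 at 93.5 and 62.0 units, and NDUFB5, of the membrane arm, at 83.6 and 61.3 units. On the Dicer antibody and untreated arrays NDUFS4 read 2801 and 3508 units and NDUFB5 read 3120.2 and 3155 units. Only 6 of the genes passed 100 units on the exosome array and 3 on the MDA-MB-231 array.

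The genes detected there were not simply those brightest on the untreated array. ATP5MG ranked 11 of 82 on the untreated array, COX5B 16, COX6C 18, NDUFB7 42 and NDUFA13 46. ATP5F1B, which ranked 1 on the untreated array, read 78.0 units, undetected, on the exosome array and 72.8 on the MDA-MB-231 array. Across the 82 genes the Spearman correlation of signals was 0.22 between the exosome and untreated arrays and 0.10 between the MDA-MB-231 and untreated arrays, but 0.79 between the exosome and MDA-MB-231 arrays. Over all genes these were 0.12, 0.12 and 0.76. The values describe single arrays on which most of these probes lie near background, and what orders them there was not tested.

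Other probes of the same genes did not repeat the detection. The second ATP5MG probe read 371.1 units on the Dicer antibody array, 51.4 on the exosome array and 47.0 on the MDA-MB-231 array, undetected on these 2, against 515.3 on the untreated array. The second SDHC probe read 46.5 and 50.4 units on the exosome and MDA-MB-231 arrays, where the first read 115.2 and 78.6, and the second ATP5MC1 probe read 49.7 and 46.3 units, where the first read 86.2 and 68.1. These were the only 3 of the 12 genes with more than 1 probe, so the detection of ATP5MG, SDHC and ATP5MC1 rested on 1 probe each, and that of the other 9 could not be set against another probe.

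**Figure D4:**
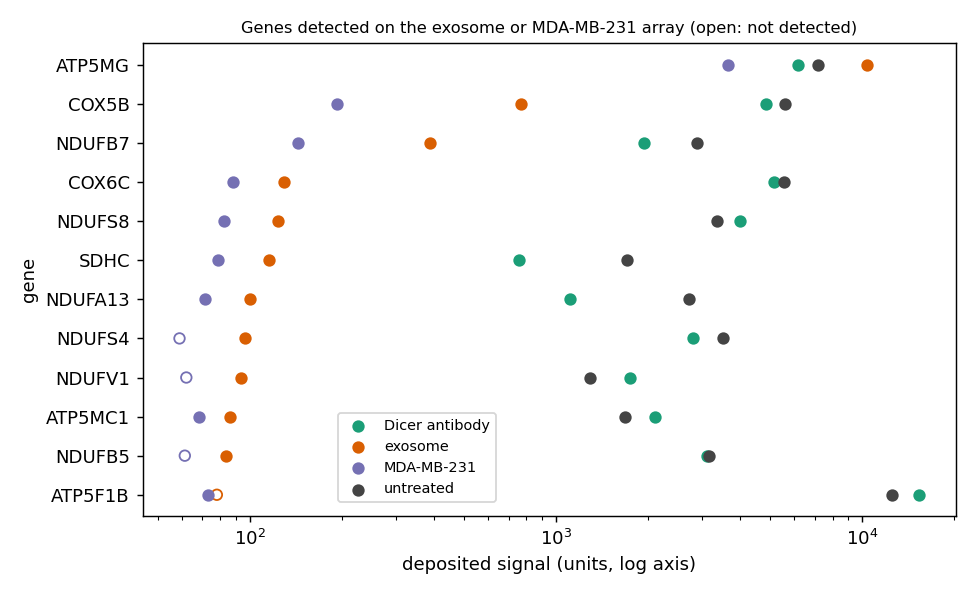
Deposited signal (units, log axis) of the 12 genes detected on the exosome or MDA-MB-231 array, on each of the 4 arrays, with undetected values open. ATP5MG reads between 3652 and 10352 units on the 4 arrays, while the others lie at 769.1 units or less on the exosome array and at 192.0 or less on the MDA-MB-231 array.

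The exosome array against the MDA-MB-231 array sets treated cells beside the line that made the exosomes. All 8 genes detected on both had the brighter deposited signal on the exosome array, as had 997 of 1065 such genes of all kinds (93.6%). After normalization the 12 genes compared had a median log2 difference of 0.20, against 0.05 over all genes. None was at least 2-fold higher on the exosome array (against 4.83% of 1696 genes) and none at least 2-fold lower (against 3.07%). Among the genes detected on both, the differences ran from 0.06 for COX6C to 0.35 for NDUFA13. ATP5MG gave 0.15 and COX5B 0.32. ATP5F1B, detected on the MDA-MB-231 array alone, had a bound of -0.49, but at the least over the scalings it came to 1.0-fold, no difference. Its deposited signal was 78.0 units on the exosome array, undetected, and 72.8 on the MDA-MB-231 array.

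Each remaining comparison crosses the split in detection and shares an array with another, so the 3 are given side by side, and group and split cannot be told apart. On the exosome array against the untreated array 75 genes were compared, of which 3 were at least 2-fold higher (against 10.3% of 11544 genes) and 28 at least 2-fold lower (37.3%, against 5.56%). On the MDA-MB-231 array against the untreated array 75 were compared, with 1 higher (against 10.4% of 11568 genes) and 29 lower (38.7%, against 5.72%). On the Dicer antibody array against the exosome array 74 were compared, with 24 higher (32.4%, against 5.09% of 11390 genes) and 4 lower (against 10.4%). Over all the scalings 27, 28 and 24 of these lower, lower and higher genes stayed past 2-fold, and none of the genes called the other way did. Nearly all such calls among all genes stayed as well, with 625 of 642, 642 of 662 and 560 of 580. Without normalization between arrays the counts were 72 lower (96.0%, against 75.3% of all genes), 73 lower (97.3%, against 83.0%) and 69 higher (93.2%, against 74.6%), with none the other way. A gene undetected on the dimmer array counted only when bright on the other, since after normalization detection began at a log2 value of 4.82 on the Dicer antibody array, 9.66 on the exosome array, 9.64 on the MDA-MB-231 array, with 4.83 on the untreated array.

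By complex, the genes at least 2-fold lower on the exosome array than on the untreated array were 8 of 34 in complex I, 0 of 3 in complex II, 3 of 8 in complex III, 7 of 12 in complex IV and 10 of 18 in complex V. All 4 peripheral stalk genes of complex V were among them. None of the 6 core genes of complex I was. Of all genes compared, 5.56% were called lower. Each family gene called lower had only a bound, so the call depended on its brightness on the untreated array. There the peripheral stalk genes read 5048 to 8685 units and the core genes 129.0 to 3414 units. A difference particular to a complex was not tested. ATP5F1B was at least 8.47-fold lower on the exosome array than on the untreated array, and the MDA-MB-231 array gave 6.11-fold lower, at the least over the scalings, than the untreated array. It was at least 11.9-fold higher on the Dicer antibody array than on the exosome array. COX4I1 was at least 5.74-fold lower on the exosome array than on the untreated array, no less than 5.82-fold lower for MDA-MB-231 than on the untreated array, and at least 5.58-fold higher on the Dicer antibody array than on the exosome array.

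The genes called higher on the exosome array than on the untreated array were ATP5MG (log2 difference 1.83), NDUFB7 (1.16) and SDHC (1.01). On the MDA-MB-231 array against the untreated array ATP5MG gave 1.68, NDUFB7 0.97 and SDHC 0.84. On the Dicer antibody array against the exosome array these 3 gave -1.77, -1.46 and -1.95, and NDUFA13 gave -1.15. For NDUFB7, SDHC and NDUFA13 the deposited signals ran the other way in these comparisons, as did those of ATP5MG between the MDA-MB-231 and untreated arrays, at 3652 and 7152 units. SDHC, for instance, read 754.4 units on the Dicer antibody array, 115.2 on the exosome array and 1706 on the untreated array. Ribosomal protein genes had 8 higher and 34 lower of 75 on the exosome array against the untreated array, and proteasome genes 4 higher and 8 lower of 33. Of all genes compared there, 10.3% were higher and 5.56% lower.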

How the data were processed

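The authors deposited a non-normalized table holding a linear intensity, background included, for each probe and array, with a detection p-value beside it. They also deposited a value table of intensity normalized between arrays, by a method not given in the sources used here, whose exosome column holds detection p-values (median 0.423) in place of signals. That table, with medians of 55.3 (Dicer antibody), 55.1 (MDA-MB-231) and 55.3 (untreated), was only an alternative. Per the submitters' processing notes, the authors used limma, whose version is not given in the sources used here.

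Probes were named from the platform annotation: 30110 had 1 symbol, 8 several and 17204 none. NDUFA4 and NDUFA4L2 are listed there as COXFA4 and COXFA4L2. For a gene with several probes, the one with the highest mean deposited signal over the 4 arrays was taken. Signals were background-corrected, quantile-normalized and logged with neqc of limma 3.58.1 (R 4.3.3, offset 16), so log2 differences derived from the deposited intensity can exceed the ratio of the printed signals. Genes detected (p below 0.01) on at least 1 array of a pair were compared. Where 1 array did not detect a gene, the difference is a bound, taken from the lowest value detected there or the gene's own value if higher, and set to 0 where none was left. Folds written with "at least" or "at the least" are the smallest over 7 scalings: the one above, no background correction, an offset of 50, median scaling, no normalization, the deposited signals alone and the authors' value table, which holds no exosome signals and leaves 6 in comparisons with that array. The steps were tested on simulated data, with every array built from the signals of the untreated array. No simulated array had few detected probes, so bounds across the split in detection were not checked there. Python 3.11.15, numpy 2.4.6, pandas 2.3.3, scipy 1.17.1 and matplotlib 3.10.9 handled tables and drawings.

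Every gene of the family could be named. Given in full were the brightest, highest and lowest of each complex, and those at least 2-fold different between the Dicer antibody and untreated arrays. So were those detected on the exosome or MDA-MB-231 array, restricted isoforms with their partners, and genes whose probes disagreed in sign. Other lists are given by counts with their 2 highest and 2 lowest genes. The genes and lists were chosen with earlier results of these data known. With 1 array per group there was no test, and precision is limited by the number of arrays. Probe sequences were not used here.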

Additional observations from a re-analysis of the deposited data

Results flagged for a closer look

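Among 24 probes for 6 pseudogenes and 1 probe for an antisense gene, which share the symbols' beginnings and were left out, 1 probe for SDHAP1, a pseudogene of SDHA, was detected on the Dicer antibody array at 73.5 units and undetected on the untreated array at 55.4 units. It was listed because it gave a signal, outside the genes compared, on a treated array and not on the untreated one. The lowest detected signal on the Dicer antibody array was 72.1 units, so the value lies close to the limit of detection. Another SDHAP1 probe went the other way, at 56.1 units, undetected, on the Dicer antibody array and 68.9 units, detected, on the untreated array. Whether either probe reads SDHA itself was not tested.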

How the results depend on the processing

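With median scaling, genes of the family at least 2-fold higher and lower numbered 1 and 10 on the Dicer antibody against the untreated array, 0 and 70 on the exosome against the untreated array, and 0 and 72 on the MDA-MB-231 against the untreated array. They numbered 68 and 1 on the Dicer antibody against the exosome array, and 3 were higher on the exosome against the MDA-MB-231 array. Of all genes, median scaling called 14% higher and 24.6% lower, 1.71% and 72.2%, 0.631% and 78.0%, 69.8% and 1.91%, and 32.0% higher in these comparisons. Without normalization between arrays the counts were 1 and 7, 0 and 72, 0 and 73, 69 and 0, and 3 higher (of all genes, 15.3% and 22.9%, 1.36% and 75.3%, 0.389% and 83.0%, 74.6% and 1.34%, and 35.8% higher). Without a detection filter, 63 were lower on the exosome and 63 on the MDA-MB-231 against the untreated array, with 3 higher on the MDA-MB-231 array. Then 59 were higher on the Dicer antibody against the exosome array, and 8 were higher and 11 lower on the exosome against the MDA-MB-231 array. Of all genes, these calls took 35.6%, 36.0%, 23.2%, 34.7%, 13.6% and 12.4% in that order. Among genes detected on both arrays, 0 were lower on the exosome and 1 on the MDA-MB-231 against the untreated array. None was higher on the Dicer antibody against the exosome array, since few genes are left (of all genes, 3.34%, 3.32% and 2.7%). The mean over probes gave 1 higher on the exosome and 0 on the MDA-MB-231 against the untreated array. It gave 2 lower on the Dicer antibody against the exosome array (of all genes, 9.48%, 9.74% and 9.39%). A detection p below 0.05 gave 43 higher on the Dicer antibody against the exosome array (of all genes, 11.8%). It gave 3 higher on the exosome against the MDA-MB-231 array (of all genes, 8.58%). A detection p below 0.001 left 6 genes detected on the exosome array. The other 137 counts and medians stayed within 1.5 times, medians being read as folds. Within that limit some medians of the Dicer antibody against the untreated array changed sign. With median scaling those of complexes II, III, IV and V turned from 0.12, 0.25, 0.03 and 0.02 to -0.20, -0.13, -0.29 and -0.34. Each was also negative without normalization between arrays. The cause of the changes was not tested.

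The 8 genes past 2-fold on the Dicer antibody against the untreated array kept their direction under every setting that compared them. Of the 8, 4 stayed past 2-fold under median scaling, 4 without normalization and 6 in the authors' value table, and COX7A1, NDUFA3 and NDUFB9 did so throughout. The bound for COX7A1 ran from -6.59 to -4.19 on the log2 scale. Choosing the probe by its normalized mean, added after seeing the data, changed the probe of 6 genes and no count by over 1.5 times. No paired analysis was possible because each group holds 1 array, and no replicate could be left out. Probes near background on the exosome and MDA-MB-231 arrays give no order of levels.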

Other observations

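The pseudogene ATP5F1EP2, a copy of the epsilon subunit gene ATP5F1E, had probes brighter than most subunit genes. Its first probe read 11509 units on the Dicer antibody array, 1281 on the exosome array, 358.9 on the MDA-MB-231 array, with 15731 on the untreated array. Its second probe read 9712, 42.3, 43.4 and 12654 units on the same arrays in the same order, so the signal on the exosome and MDA-MB-231 arrays came from 1 of the 2 probes, as for ATP5MG. The ATP5F1E probe read 2072, 55.1, 59.6 and 3548 units. UQCRBP1 read 2272, 53.7, 51.7 and 2194 units.

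A few other mitochondrial genes were bright on the exosome array, and all but SCO2 on the MDA-MB-231 array. The complex III assembly factor UQCC2 read 1756 units on the Dicer antibody array, 10802 on the exosome array, 3397 on the MDA-MB-231 array, with 1980.2 on the untreated array. ETFA read 4921, 5361, 2644 and 2787 units in that order. BCS1L, which inserts the iron-sulfur protein of complex III, read 655.3, 869.9, 285.0 and 375.2 units, and SCO2, a copper chaperone of complex IV, read 839.5, 1045.4, 91.7 and 978.7 units. These 4, like ATP5MG, were brighter on the exosome array than on the untreated array. Other bright ones were dimmer on the exosome array than on the untreated array. IDH3G read 1180 and 1292 units on these arrays, ETFB 780.7 and 1702, IDH3B 721.0 and 1475, and MDH2 472.9 and 7033.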
